A study of Mus musculus with 2 samples.

Results

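The 32 genes described here encode the enzymes that make cholesterol and fatty acids, with their main transcriptional regulators. They were chosen by symbol from the gene table of the series, which lists 32285 genes, and all 32 were found. They comprise 18 enzymes of the sterol branch, 8 enzymes of the fatty acid branch, 5 regulators and 1 sterol transport protein. R1 embryonic stem cells, a mouse line long used for gene targeting, were kept for 72 h in N2B27, a serum-free medium, and profiled by droplet single-cell RNA sequencing. There were 2 libraries, 1 per culture condition. The LB cells received LIF, which supports self-renewal through STAT3, and the growth factor BMP4, on a gelatin coating. The LBPXRS cells also received LIF and BMP4, together with PD0325901 (a MEK inhibitor), Xav939 (a tankyrase inhibitor that dampens WNT signalling), SB431542 (an inhibitor of the activin, NODAL and TGF-beta receptors) and a compound named only as Resorcyclic lactone, on a fibronectin coating. The added compounds and the coating therefore cannot be told apart. With 1 library per condition no difference has a replicate check. No test was made, and the intervals given are exact 95% Poisson or binomial intervals that cover counting error only.

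Cells make cholesterol from acetyl-CoA through mevalonate, the isoprenoid farnesyl diphosphate and squalene, and they make fatty acids from the same acetyl-CoA pool through malonyl-CoA. The SREBP transcription factors drive most of these genes: when sterols in the endoplasmic reticulum are scarce, SCAP escorts SREBP to the Golgi, where it is cleaved, and INSIG proteins hold the complex back when sterols are plentiful. SREBP binds sterol regulatory elements in promoters, usually beside CCAAT boxes bound by NF-Y. Proliferating cells, embryonic stem cells included, use these products for new membranes and for the lipid anchors of proteins.

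The promoters of 3 members were searched for letters of the elements that this regulation is known for. They are shown because Hmgcs1 makes HMG-CoA early in the sterol pathway, Fasn had the lowest ratio of LBPXRS to LB and Insig1 the highest. Each line gives the 250 bases before the RefSeq start site, 5′ to 3′ on the gene's own strand, in the GRCm38.p6 assembly. Capitals mark the searched letters on either strand: TCACNCCAC, a sterol regulatory element, CCAAT, the NF-Y box (ATTGG on the other strand), and CACGTG, the E-box. Hmgcs1 (ENSMUSG00000093930) is at chr13:119690101-119690350 on the plus strand, Insig1 (ENSMUSG00000045294) at chr5:28071162-28071411 on the plus strand and Fasn (ENSMUSG00000025153) at chr11:120824548-120824797 on the minus strand.
Hmgcs1: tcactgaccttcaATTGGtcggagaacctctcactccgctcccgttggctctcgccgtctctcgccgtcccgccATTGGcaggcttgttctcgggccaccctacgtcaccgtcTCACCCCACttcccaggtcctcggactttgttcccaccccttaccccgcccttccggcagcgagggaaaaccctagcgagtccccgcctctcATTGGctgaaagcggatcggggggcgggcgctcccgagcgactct
Insig1: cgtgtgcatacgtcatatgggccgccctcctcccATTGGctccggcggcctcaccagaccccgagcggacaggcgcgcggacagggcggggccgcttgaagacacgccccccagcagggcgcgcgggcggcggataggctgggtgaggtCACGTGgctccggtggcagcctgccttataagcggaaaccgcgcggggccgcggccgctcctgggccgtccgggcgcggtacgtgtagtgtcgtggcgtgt
Fasn: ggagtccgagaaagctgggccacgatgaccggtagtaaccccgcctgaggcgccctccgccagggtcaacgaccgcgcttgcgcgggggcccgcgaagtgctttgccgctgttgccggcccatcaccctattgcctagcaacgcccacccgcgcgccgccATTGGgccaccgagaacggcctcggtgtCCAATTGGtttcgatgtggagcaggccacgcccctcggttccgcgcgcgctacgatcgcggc

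The Hmgcs1 stretch held 1 sterol element and 3 CCAAT boxes. The Insig1 stretch held 1 CCAAT box, 1 E-box and 0 sterol elements. The Fasn stretch held 0 sterol elements and 3 CCAAT matches, of which 2 overlap in a single palindromic run. Windows from 250 bases before to 50 after a start were held for 25 of the 32 members in the RefSeq promoter table, and a gene was counted once if any of its windows matched. CCAAT was found in 20 of the 25, against 41.1% of all 27025 genes with a window and 44.2% of the 6172 of them that reached 10 CPM (UMI counts scaled to a library total of 1000000) here. Of the sterol enzymes, 14 of 15 had a CCAAT match, and of the fatty acid enzymes 2 of 5, Acly and Fasn. The E-box was found in 5 members (Insig1, Scap, Hsd17b7, Sc5d and Dhcr7), against 8.09% of all genes and 12.9% of those at 10 CPM. TCACNCCAC was found in 1 member, Hmgcs1, against 1.44% of genes, and the stricter SRE-1 core in 0 members, against 0.0999%. These are letter matches in short windows, and binding was not measured.

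After filtering, 1783 LB cells and 2705 LBPXRS cells were kept, with 45490517 and 51832444 UMIs (unique molecular identifiers, each standing for 1 captured RNA molecule) and a median of 25418 and 19058 UMIs per cell. Levels are given as CPM, and the log2 ratio is that of (CPM + 1) in LBPXRS over (CPM + 1) in LB. The libraries differed in the cells they held. The summed level of 13 mesoderm markers was 477 CPM in LB, with 11 of them at 5 CPM or more, and 6.91 CPM in LBPXRS, with 0 at 5 CPM or more and Hand1 at 0. The 13 naive pluripotency markers summed to 1213 CPM in LB and 2061 CPM in LBPXRS, the 10 trophoblast markers to 459 and 118 CPM, and the 12 primitive endoderm markers to 206 and 537 CPM. The libraries shared 10 cell barcodes.

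Most of the lipid synthesis genes stood lower in LBPXRS than in LB. Of the 32 members 25 had a log2 ratio below 0 and 7 above 0, with a median of -0.57. Among the 30 members that reached 10 CPM in either library, 8 were at least 2-fold lower in LBPXRS: Mvd, Lss, Ebp, Acly, Acaca, Fasn, Scd2 and Stard4. With TMM scaling 4 of them, Lss (-0.99), Ebp (-0.94), Acly (-0.87) and Scd2 (-0.92), fell short of 2-fold. Among all 7661 genes at 10 CPM or more, 10.4% were at least 2-fold lower. No member (0 of 30) was at least 2-fold higher, against 7.98% of all genes. The median log2 ratio over those 7661 genes was -0.17.

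**Figure D1:**
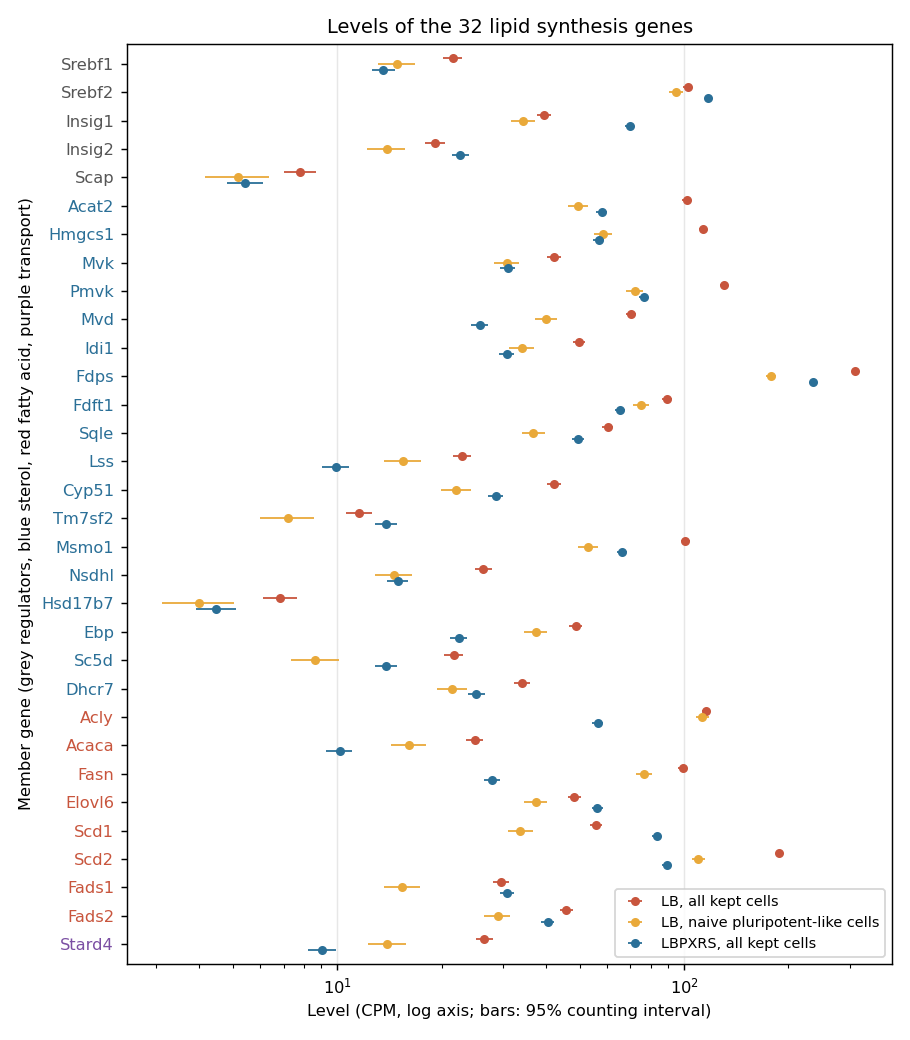
Level of each of the 32 genes (CPM, log axis) in all LB cells (red), in the naive pluripotent-like LB cells (yellow) and in all LBPXRS cells (blue), with 95% counting intervals as bars. In most rows of the sterol branch the red point lies to the right, and the yellow and blue points lie closer to each other than to it.

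The sterol branch as a whole stood at 1283 CPM (1273 to 1294) in LB and 828 CPM (820 to 836) in LBPXRS, a ratio of 0.645 (0.637 to 0.653). Of its 18 members 17 had a log2 ratio below 0, with a median of -0.60 and a range from -1.42 to 0.24. Of all 7661 genes at 10 CPM or more, 60.4% were below 0. The sum is weighted by the most captured members, so the median gives the more even account of the branch.

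The first steps lead from acetyl-CoA to mevalonate and on to the activated isoprenes. Acat2, the cytosolic thiolase that joins acetyl-CoA units, stood at 102 CPM (98.7 to 105) in LB and 57.8 CPM (55.8 to 59.9) in LBPXRS, a log2 ratio of -0.80. It has a close paralog, Acat3, and reads that fit both genes could have been dropped or split, so its level is uncertain. Hmgcs1, the synthase that makes HMG-CoA, stood at 113 CPM (110 to 116) and 56.7 CPM (54.7 to 58.8), a log2 ratio of -0.99 that lies just short of the 2-fold line. Mvk, mevalonate kinase, stood at 42.2 and 31.02 CPM (-0.43), and Pmvk, the next kinase, at 130.3 and 76.5 CPM (-0.76). Mvd, the decarboxylase that makes isopentenyl diphosphate, had the lowest ratio of the branch, at 70.3 CPM (67.9 to 72.8) in LB and 25.7 CPM (24.4 to 27.1) in LBPXRS, a log2 ratio of -1.42. Idi1, which isomerises that product, stood at 49.8 and 30.8 CPM (-0.67). All members of this upper segment stood lower in LBPXRS, with Mvd past 2-fold.

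The middle steps make farnesyl diphosphate, squalene and lanosterol. Fdps, farnesyl diphosphate synthase, stood at 311 CPM (306 to 317) in LB and 235 CPM (231 to 239) in LBPXRS, a log2 ratio of -0.40. Fdft1, squalene synthase, stood at 89.2 and 65.4 CPM (-0.44), and Sqle, squalene epoxidase, a rate-limiting enzyme of the pathway, at 60.2 and 49.4 CPM (-0.28). Lss, which closes squalene epoxide into lanosterol, stood at 22.9 CPM (21.5 to 24.3) and 9.88 CPM (9.04 to 10.8), a log2 ratio of -1.13. Lss was the 1 enzyme of this segment past 2-fold, and the other 3 were among the less lowered of the branch.

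The late steps turn lanosterol into cholesterol. Cyp51, the lanosterol demethylase, stood at 42.2 and 28.6 CPM (-0.54), Msmo1, the methylsterol oxidase, at 100.8 and 66.3 CPM (-0.60), and Nsdhl, the dehydrogenase that works with it, at 26.3 and 14.9 CPM (-0.78). Ebp, the sterol isomerase, was past 2-fold, at 48.6 CPM (46.6 to 50.7) in LB and 22.4 CPM (21.1 to 23.7) in LBPXRS, a log2 ratio of -1.09. Sc5d, the desaturase, stood at 21.6 and 13.8 CPM (-0.61), and Dhcr7, the reductase whose loss causes Smith-Lemli-Opitz syndrome, at 34.1 and 25.2 CPM (-0.42). Hsd17b7, a ketosteroid reductase, stayed under 10 CPM in both libraries, at 6.84 and 4.48 CPM (-0.52). Tm7sf2, a sterol reductase, was the exception of the branch: it stood at 11.6 CPM (10.6 to 12.6) in LB and 13.9 CPM (12.9 to 14.9) in LBPXRS, a log2 ratio of 0.24.

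The fatty acid branch summed to 606 CPM (599 to 614) in LB and 394 CPM (389 to 400) in LBPXRS, a ratio of 0.650 (0.639 to 0.662). The sum and the median log2 ratio (-0.60) were near those of the sterol branch, but the members were split, with 5 of 8 below 0 and a range from -1.79 to 0.58. No member stood near that median, which lies between Acly (-1.02) and Fads2 (-0.17). Over the 5 members not on chromosome 11 the median was 0.05. The enzymes that build palmitate stood lower. Acly, which releases acetyl-CoA from citrate, stood at 116 CPM (112 to 119) and 56.4 CPM (54.4 to 58.5), a log2 ratio of -1.02. Acaca, the carboxylase that makes malonyl-CoA, stood at 24.9 CPM (23.4 to 26.4) and 10.1 CPM (9.30 to 11.1), a log2 ratio of -1.21. Fasn, the synthase itself, stood at 99.0 CPM (96.1 to 102) and 27.9 CPM (26.5 to 29.4), or 3.54-fold lower in LBPXRS, the lowest ratio of the 32 genes.

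The enzymes that lengthen and desaturate fatty acids did not follow them as a group. Elovl6, which elongates palmitate, stood at 48.2 CPM in LB and 56.2 CPM in LBPXRS (0.22). The stearoyl-CoA desaturases, neighbouring paralogs that make oleate, went opposite ways. Scd1 stood at 55.6 CPM (53.4 to 57.8) and 83.5 CPM (81.0 to 86.0), a log2 ratio of 0.58, and Scd2 at 188 CPM (184 to 192) and 89.0 CPM (86.4 to 91.6), a log2 ratio of -1.07. The summed level was thus carried mostly by Scd2 in LB and shared by both genes in LBPXRS. Fads1 and Fads2, the desaturases of polyunsaturated fatty acids, stood at 29.7 and 30.8 CPM (0.05) and at 45.7 and 40.4 CPM (-0.17).

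Of the regulators 3 of 5 had a log2 ratio above 0, with a median of 0.20. Srebf2, the factor best known for the cholesterol genes, stood at 102 CPM (99.4 to 105) in LB and 117 CPM (115 to 120) in LBPXRS, a log2 ratio of 0.20. Srebf1, better known for fatty acid genes, stood at 21.5 CPM (20.2 to 22.9) and 13.6 CPM (12.6 to 14.6), a log2 ratio of -0.63. These are transcript levels, and neither the cleaved nuclear form of the proteins nor sterol content was measured. Insig1, which retains the SREBP complex and is itself a well-known SREBP target, had the highest ratio of all members, at 39.5 CPM (37.7 to 41.4) and 69.6 CPM (67.4 to 71.9), a log2 ratio of 0.80. Its paralog Insig2 stood at 19.2 and 22.6 CPM (0.23), and Scap, the escort protein, under 10 CPM at 7.80 and 5.42 CPM (-0.46). Stard4, which carries cholesterol between membranes and is likewise a known SREBP target, went the opposite way to Insig1, at 26.5 CPM (25.04 to 28.1) and 9.03 CPM (8.23 to 9.89), a log2 ratio of -1.46.

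Where a gene lies moved with its ratio. Over genes with a mean of at least 20 CPM, the median log2 ratio was -0.65 on chromosome 11 (465 genes) and -0.60 on chromosome 8 (288 genes), while on each of the other autosomes and X it lay between -0.17 and 0.012. Chromosome 11 carries Srebf1, Acly, Acaca and Fasn, and chromosome 8 carries Mvd and Msmo1. The part of these chromosome-wide differences in the members' values was not tested, and no DNA was measured. The 3 fatty acid members on chromosome 11 had a median of -1.21, and the 5 members elsewhere a median of 0.05. Those 3 are also the enzymes that build palmitate, so position and pathway step cannot be told apart. Relative to the median of their own chromosome, Msmo1 stood at 0.0034 and Srebf1 at 0.022, so both were at the level of their neighbours. Fasn stood at -1.14. Mvd (-0.82), Acly (-0.37) and Acaca (-0.57) were no longer past 2-fold by this measure, and neither were Ebp (-0.99) and Scd2 (-0.93). The 3 members that still were, of 8, were Fasn, Lss (-1.03) and Stard4 (-1.29). The sterol branch lost little by this measure, with a median of -0.49, and without its members on chromosome 8 its median was -0.58. The fatty acid branch moved more, to -0.21.

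**Figure D2:**
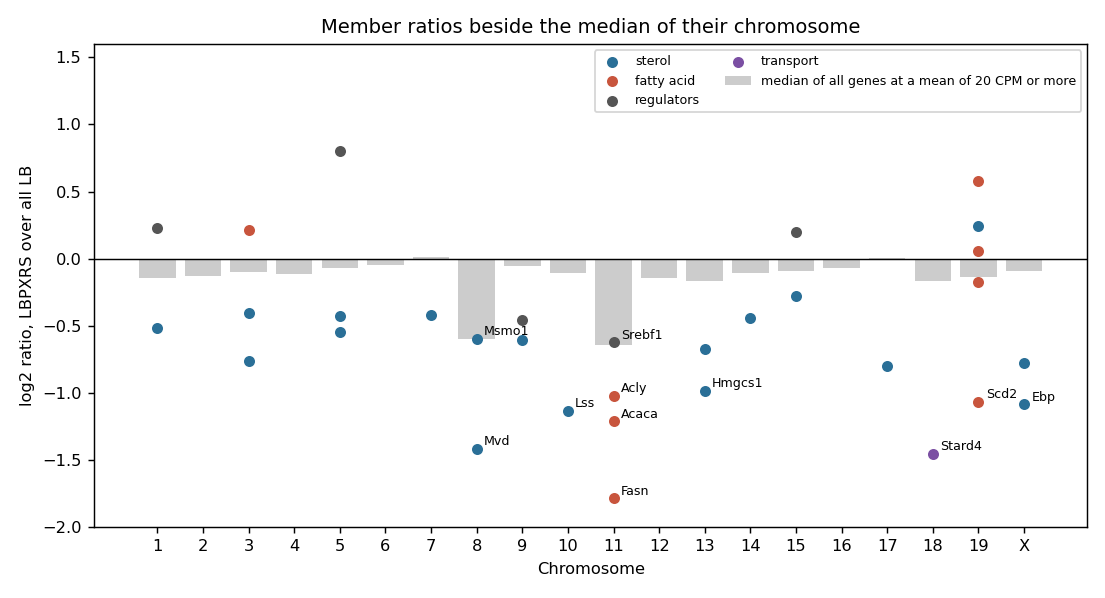
Log2 ratio of LBPXRS over all LB cells for each member (points, coloured by role), placed on its chromosome, beside the median of all genes there at a mean of 20 CPM or more (grey bars). The bars of chromosomes 8 and 11 reach -0.60 and -0.65, Msmo1 and Srebf1 lie at the end of their bars, and Fasn and Mvd lie below theirs.

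The LB average mixes several kinds of cell, and the members were far from even across them. Each library was clustered with the members left out of the genes used. One LB cluster of 633 cells (35.5% of the library) was called naive pluripotent-like, since 10 of the 13 naive markers were raised in it. Its mesoderm markers summed to 24.8 CPM. The remaining 1150 LB cells held all 32 members at a higher level than these naive-like cells, with 14 of the 32 at least 2-fold higher. That compares with 68.9% of 7602 genes higher at any size and 11% at least 2-fold higher. The sterol branch stood at 758 CPM (745 to 771) in the naive-like cells and 1622 CPM (1607 to 1637) in the other LB cells, and the fatty acid branch at 431 CPM (422 to 441) and 719 CPM (709 to 729). The sterol level did not track the naive markers in every cluster. The unnamed LB cluster 6 (61 cells) held 2224 CPM of naive markers, near the 2281 CPM of the naive-like cluster. Its sterol branch stood at 1582 CPM (1493 to 1675). Its cells were shallow, with a median of 10944 UMIs against 27955 in the naive-like cluster. The unnamed cluster 7 held 2005 CPM of naive markers with a sterol branch of 782 CPM.

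Within LB, Sc5d showed the widest gap, at 8.64 CPM (7.33 to 10.1) in the naive-like cells and 29.99 CPM (27.99 to 32.1) in the others. Acat2 stood at 49.6 and 135 CPM, Hmgcs1 at 58.4 and 149 CPM, Msmo1 at 52.8 and 132 CPM and Cyp51 at 22.1 and 55.2 CPM. In the fatty acid branch 3 members were past 2-fold: Fads1, at 15.4 and 38.9 CPM, Scd2, at 110.0 and 238 CPM, and Scd1, at 33.7 and 69.6 CPM. Acly was nearly level, at 113 CPM (108 to 118) in the naive-like cells and 117 CPM (113 to 121) in the others. None of the 5 regulators was past 2-fold. Their log2 differences ran from 0.18 for Srebf2 (94.6 and 107 CPM) and 0.31 for Insig1 (34.4 and 42.9 CPM) to 0.67 for Insig2, 0.76 for Srebf1 and 0.77 for Scap.

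Against the naive-like LB cells alone, the LBPXRS library no longer stood lower in the sterol branch. The branch was at 758 CPM in those cells and 828 CPM in LBPXRS, a ratio of 1.09 (1.07 to 1.11). The median log2 ratio was 0.11, with 12 of 18 members above 0 and 6 below. The count of members at least 2-fold lower went from 8 to 1, Fasn, against 6.41% of 7266 genes. The count at least 2-fold higher went from 0 to 1, Scd1, against 9.19%. The median over all of those genes was -0.0065.

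**Figure D3:**
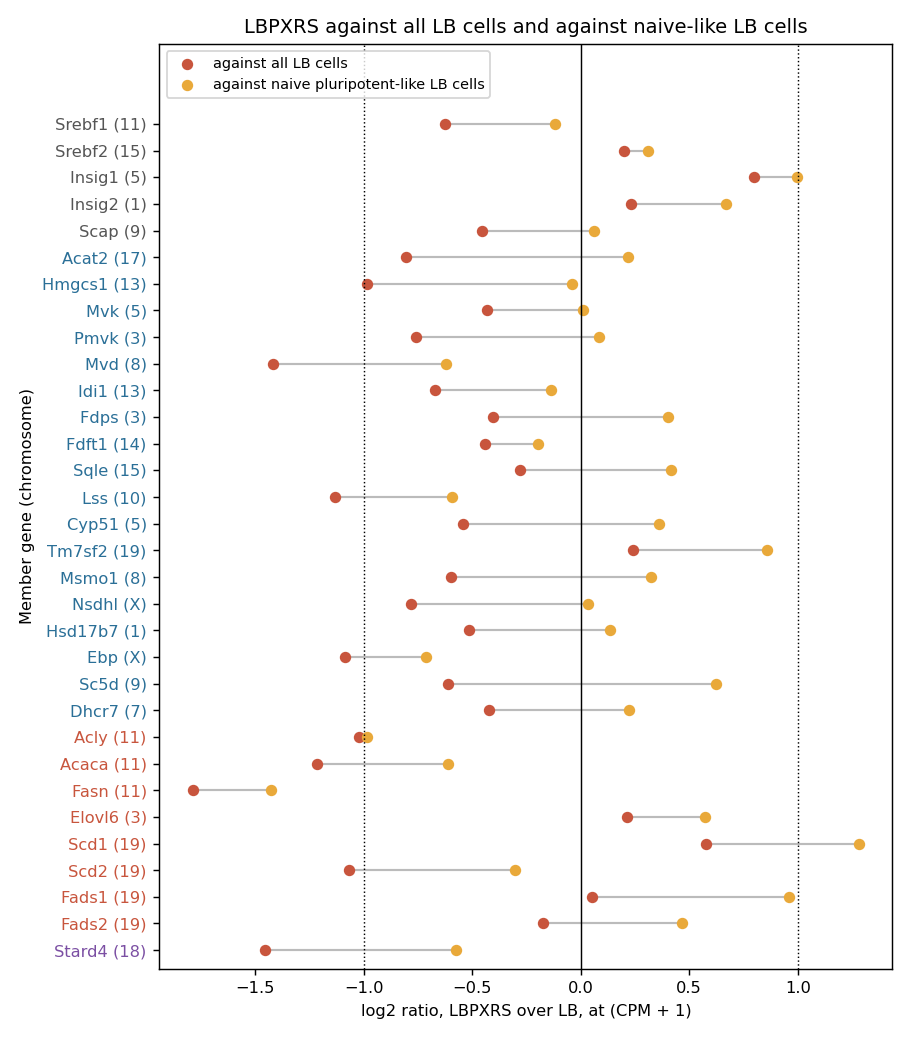
Log2 ratio of LBPXRS over all LB cells (red) and over the naive pluripotent-like LB cells only (yellow) for each member, with its chromosome in brackets and the 2-fold lines dotted. Each yellow point lies to the right of its red one, the sterol genes gather around 0, and Fasn stays beyond the lower line while Scd1 passes the upper.

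The members differed among themselves in that narrower comparison, which uses the same LBPXRS values as the wider one. In the sterol branch Mvd (40.1 CPM in the naive-like cells, 25.7 in LBPXRS, log2 ratio -0.62), Lss (15.4 and 9.88 CPM, -0.60) and Ebp (37.3 and 22.4 CPM, -0.71) stood lowest in LBPXRS. They are the 3 sterol enzymes that were past 2-fold against all LB cells. Tm7sf2 (7.18 and 13.9 CPM, 0.86) and Sc5d (8.64 and 13.8 CPM, 0.62) stood highest, followed by Sqle (36.8 and 49.4 CPM, 0.42) and Fdps (178 and 235 CPM, 0.40). Hmgcs1 was level, at 58.4 CPM (54.9 to 62.0) and 56.7 CPM (54.7 to 58.8).

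In the fatty acid branch the palmitate-building enzymes, which are the 3 members on chromosome 11, had a median of -0.99. Fasn stood at 76.8 CPM (72.8 to 81.0) in the naive-like cells and 27.9 CPM (26.5 to 29.4) in LBPXRS (-1.43), Acly at 113 and 56.4 CPM (-0.99), and Acaca at 16.1 and 10.1 CPM (-0.61). The 5 members elsewhere had a median of 0.57. Scd1 stood at 33.7 CPM (31.1 to 36.5) and 83.5 CPM (81.0 to 86.0), a log2 ratio of 1.28, and Fads1 at 15.4 CPM (13.6 to 17.3) and 30.8 CPM (29.4 to 32.4), a log2 ratio of 0.96. Only Scd2 among these 5 stayed below 0, at -0.30. Insig1 stood at 34.4 CPM (31.7 to 37.2) and 69.6 CPM (67.4 to 71.9), a ratio of 2.03 that falls just short of 2-fold once the pseudocount is added. Against the 268 LB cells called naive-like at the finer clustering resolution of 1, Insig1 was past 2-fold higher, at 1.47.

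Across LB clusters the sterol branch ranged 2.47-fold between the lowest and the highest cluster of at least 100 cells. The lowest was the naive-like cluster 1 at 758 CPM, close to the unnamed cluster 7 (130 cells, led by S100a13, Fabp3 and Calb2) at 782 CPM (752 to 814). The unnamed cluster 2 (281 cells, led by Pim2, Fgf5 and Dnmt3b) stood at 1575 CPM (1547 to 1604) and the unnamed cluster 3 (244 cells, with T, Isg15 and Rtp4 among its leading genes) at 1601 CPM (1568 to 1636), which do not differ beyond counting error. The mesoderm-like cluster 4 (354 cells) reached 1871 CPM (1843 to 1900) and the trophoblast-like cluster 5 (80 cells) 2076 CPM (2016 to 2137). In clusters of at least 100 cells, 13 of the 18 sterol members were highest in the mesoderm-like cluster, and each of the 18 was lowest in cluster 1 or 7. Sc5d went from 8.64 to 40.2 CPM and Acat2 from 49.6 to 200.3 CPM between cluster 1 and the mesoderm-like cluster. Stard4 ranged most of all members, from 8.46 CPM (5.58 to 12.3) in cluster 7 to 49.5 CPM (44.9 to 54.4) in the mesoderm-like cluster.

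The fatty acid branch had another order in LB. Among clusters of at least 100 cells it was highest in the Fgf5- and Dnmt3b-led cluster 2, at 874 CPM (853 to 895), and in the mesoderm-like cluster, at 834 CPM (814 to 853). Cluster 6, which was of low depth with a median of 10944 UMIs, stood at 877 CPM (811 to 947). The trophoblast-like cluster, highest in the sterol branch, stood at 574 CPM (543 to 606) for the fatty acid branch. Fasn and Fads2 were highest in cluster 2, at 179 and 70.3 CPM, and lowest in cluster 7, at 40.7 and 12.8 CPM. Scd2 reached 294 CPM (282 to 305) in the mesoderm-like cluster, against 74.3 CPM in cluster 7.

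In LBPXRS no cluster met the rule for a cell type name, which compares a cluster with the rest of its own library. The naive markers summed to between 1573 and 2788 CPM in its 6 clusters, against 2281 CPM in the naive-like LB cluster. The sterol branch was highest, among clusters of at least 100 cells, in cluster 4 (365 cells, with Hspa5, Plk1 and Ccnb1 among its leading genes) at 1236 CPM (1211 to 1261). It was lowest in cluster 5 (622 cells, led by Gata2, Dusp4 and Bhlhe41) at 616 CPM (602 to 629). Among those 5 larger clusters, cluster 4 held the highest level of 16 of the 18 sterol members, the exceptions being Hmgcs1, highest in cluster 1, and Sc5d, highest in cluster 3. Fdps stood at 413 CPM (398 to 427) in cluster 4 and 158 CPM (149 to 169) in cluster 2, and Dhcr7 at 41.6 CPM (37.1 to 46.4) in cluster 4 and 14.7 CPM (12.6 to 17.0) in cluster 5. The small cluster 6 (81 cells, with a median depth of 3382 UMIs) had a sterol sum of 1345 CPM (1231 to 1465), above that of cluster 4 though the intervals overlap. Fdps stood at 549 CPM (478 to 628) and Acat2 at 155 CPM (119 to 200.1) there, above their levels in cluster 4. Msmo1 (41.4 CPM), Sqle (20.7 CPM), Cyp51 (10.4 CPM) and Dhcr7 (12.95 CPM) stood below theirs. Hmgcs1 stood at 129.5 CPM (96.1 to 171), above its level in cluster 1.

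The fatty acid branch in LBPXRS peaked elsewhere, in cluster 1 (783 cells, led by Id3, Krt8 and Krt18), at 506 CPM (494 to 518). Among clusters of at least 100 cells, 6 of its 8 members were highest there. Among the larger clusters it was lowest in cluster 5, at 286 CPM (276 to 295), and the small cluster 6 stood lower still, at 194 CPM (153 to 244). Fasn stood at 48.4 CPM (44.7 to 52.3) in cluster 1 and 14.2 CPM (12.2 to 16.5) in cluster 5, Scd2 at 131 and 41.9 CPM, and Hmgcs1 of the sterol branch shared this pattern at 90.3 and 27.96 CPM. Ribosomal protein genes took 37.6% and 40.4% of UMIs in the LB clusters 1 and 7 and 24.5% to 34.2% in the other LB clusters, and in LBPXRS 33.5% in cluster 4 and 41.2% in cluster 5. With those genes left out of the totals, the sterol branch still ranged 2.27-fold across LB clusters and 1.78-fold across LBPXRS clusters, against 2.47-fold and 2.01-fold with them.

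**Figure D4:**
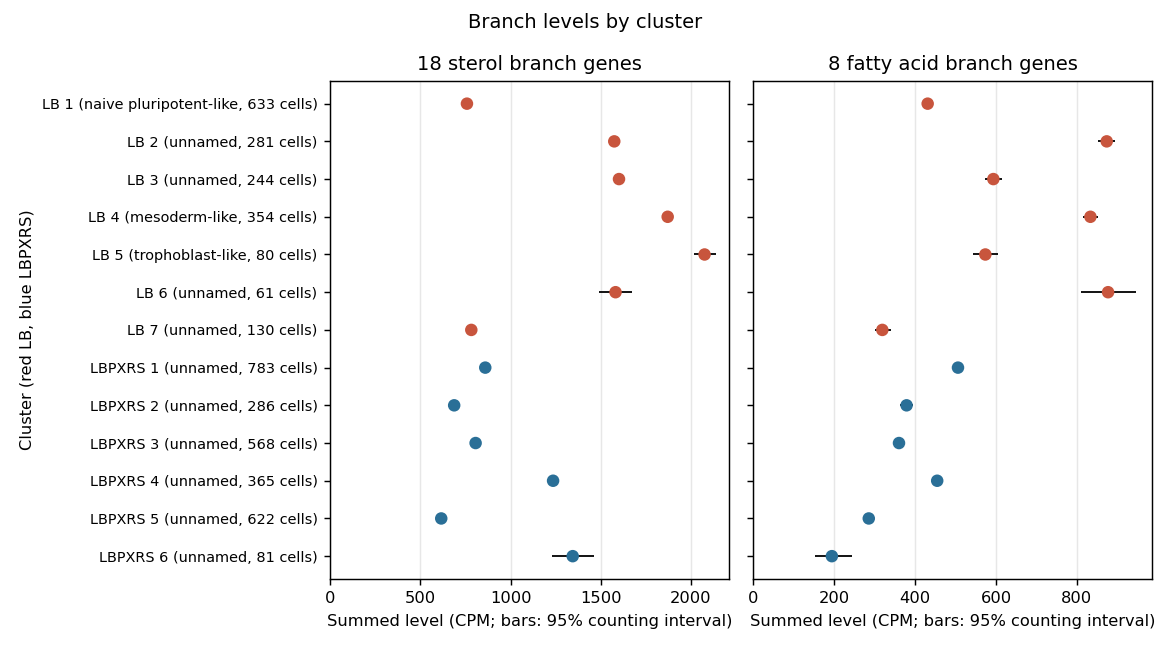
Summed level (CPM) of the 18 sterol genes (left) and the 8 fatty acid genes (right) in each cluster of LB (red) and LBPXRS (blue), with 95% counting intervals as bars. The sterol level of the naive pluripotent-like LB cluster, 758 CPM, lies among those of the LBPXRS clusters 1 to 3, while the mesoderm-like and trophoblast-like clusters reach 1871 and 2076 CPM.

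To compare single cells at 1 depth, each was thinned to 5000 UMIs, which left 1733 LB and 2621 LBPXRS cells and dropped 50 and 84 shallower ones. An LB cell then held 6.59 sterol branch UMIs on average, with a median of 5 and a 95th percentile of 15. An LBPXRS cell held 4.13 on average, with a median of 4 and a 95th percentile of 9. The variance of this sum over that of a draw from 1 common composition was 3.88 in LB and 1.67 in LBPXRS. For the fatty acid branch, whose mean was 3.12 UMIs in LB and 2.05 in LBPXRS, the same ratio was 2.16 and 1.34. The ratio rises with the mean at an equal relative spread, so its differences between branches, libraries and clusters hold level as well as spread. Clusters accounted for 24.3% of the variance of the sterol sum in LB and 14.0% in LBPXRS, and within clusters the ratio averaged 2.71 and 1.40. Inside LB clusters the ratio was uneven. It was 1.41 in the naive-like cluster and 1.62 in cluster 7 (means of 3.86 and 3.71 UMIs), near the LBPXRS average. It was 3.53 in the mesoderm-like cluster and 4.28 in cluster 3, where the means were higher, at 9.41 and 8.16 UMIs.

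**Figure D5:**
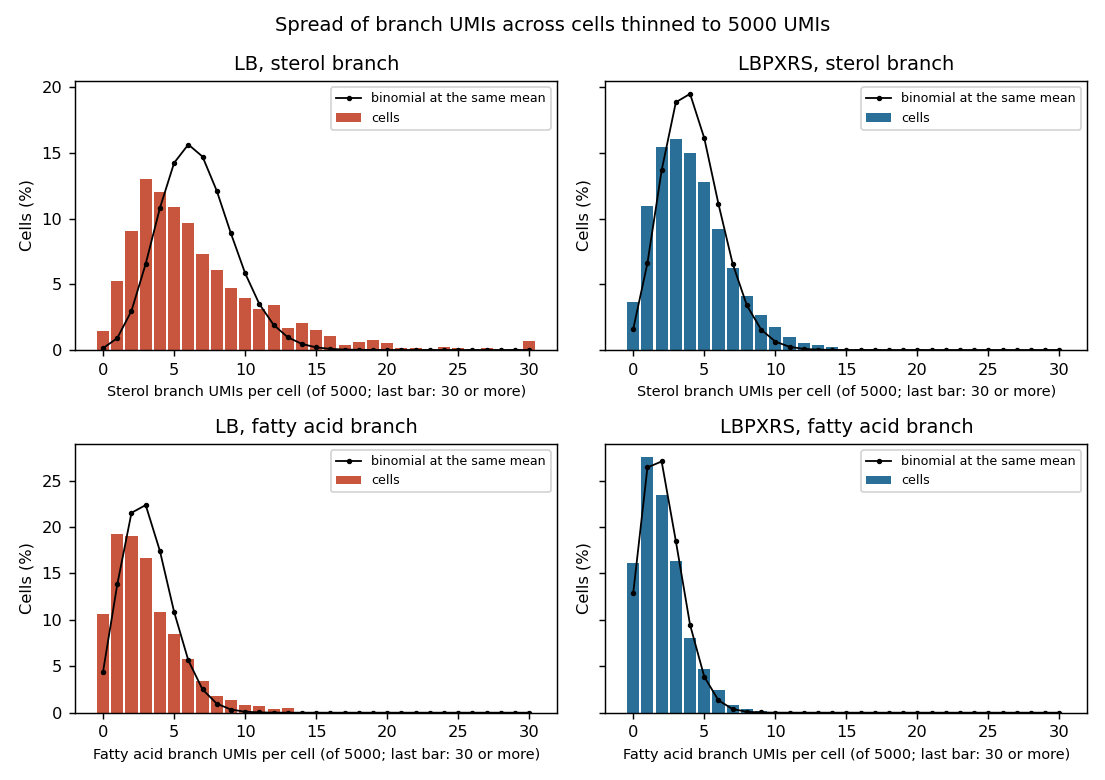
Share of cells (%) by the number of sterol (top) and fatty acid (bottom) branch UMIs per cell after thinning to 5000 UMIs, in LB (left) and LBPXRS (right), with the binomial curve at the same mean in black. The LB sterol cells spread well beyond the curve on both sides, with a median of 5 and a 95th percentile of 15 UMIs, and the LBPXRS cells lie closer to it.

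Among single genes the ratio of variance to mean rises with the level at an equal relative spread, so well captured genes lead by construction. The median variance over mean of all genes with a thinned mean of at least 0.1 was 1.07 in LB and 1.05 in LBPXRS, with 95th percentiles of 1.70 and 1.48. In LB, Fdps (2.03), Msmo1 (1.87) and Scd2 (1.81) lay above that percentile, and Hmgcs1 (1.45) and Acat2 (1.33) followed. Msmo1 was seen in 34.7% of thinned LB cells (32.5 to 37.0), with up to 13 UMIs in a cell, and in 26.6% of LBPXRS cells (24.9 to 28.3), with up to 7. Before thinning those shares were 75.3% and 63.6%. In LBPXRS the highest values were those of Fdps (1.41), Insig1 (1.26) and Scd2 (1.26), each below the 95th percentile of all genes there. Srebf2, seen in 40.0% of thinned LB cells and 43.9% of LBPXRS cells, was close to the all-gene median in LB at 1.06 and stood at 1.14 in LBPXRS. No cell class here is known to lack these genes, so the background that free RNA gives to such shares was not measured.

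Pairs of sterol genes were weakly related across cells. Over 120 pairs of sterol members with a thinned mean of at least 0.1, Pearson's r across the 1733 LB cells was positive for 118, with a median of 0.093 and a maximum of 0.35 for Fdps with Msmo1. These values are descriptions of sparse counts, whose points share a library, a thinned depth and clusters that differ in the level of the branch. In LBPXRS 70 of 78 such pairs were positive, with a median of 0.039 and a maximum of 0.11 for Sqle with Cyp51. Most values in both libraries are too weak to read for a single pair, and the share of positive pairs among other genes was not computed. The sterol and fatty acid sums had an r of 0.37 in LB and 0.13 in LBPXRS. Relative to the mean of each cell's cluster those values were 0.26 and 0.084, and within the naive-like LB cluster r was 0.14. Within the largest LBPXRS cluster r was not lower than in that whole library.

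Each gene was also set against the summed sterol branch with itself left out. In LB the members most like it were Msmo1 (r = 0.47), Fdps (0.46), Hmgcs1 (0.38) and Acat2 (0.37), over 1733 cells. Scd2, at 0.27, was the highest of the fatty acid branch, while Srebf2 stood at 0.085 and Insig1 at 0.056. The median over all 2468 genes at 50 CPM or more was 0.037, a set that Insig1, at 39.5 CPM, was outside. In LBPXRS Srebf2 stood at 0.026 and Insig1 at 0.081, beside a median of 0.029. The genes outside the list most like the sterol sum in LB were Tuba1a (0.46), Actg1 (0.35), Tecr (0.35), Tubb6 (0.34), Slc16a3 (0.34), Tubb5 (0.34), Ldha (0.33), Gnas (0.32), Lgals1 (0.32) and Krt8 (0.31). They include tubulins and actin, the glycolytic enzyme Ldha, and Tecr, the last enzyme of the fatty acid elongation cycle. In LBPXRS, over 2621 cells, the 10 genes were Tuba1b (0.23), Eno1, Ppia, Tuba1a, Cd9, Atp5b, Prdx1, Eif4a1, Ifitm2 and Sparc (0.20), all weakly related. Every member lay below those 10 genes in LBPXRS, the highest being Fdps (0.16) and Msmo1 (0.15). Ribosomal protein genes, looked at after their values were seen, ran the other way, with a negative r for 81 of 83 in LB (median -0.24) and 80 of 84 in LBPXRS (median -0.16).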

How the data were processed

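The authors deposited UMI counts per gene and cell barcode for each of the 2 libraries, made with Cell Ranger 4.0.0 on mm10, per the submitters' processing notes. The annotation, the use of strand and the cell calling are not given in the sources used here. From these counts, barcodes with under 1000 detected genes or over 10% mitochondrial UMIs were left out: 225 of 2008 in LB and 406 of 3111 in LBPXRS. Scrublet in scanpy 1.11.5 marked 13 LB cells and 1 LBPXRS cell as doublets, few enough that some may have been missed, and these were kept. UMIs were summed per library and scaled to CPM, with a pseudocount of 1 before log2, which understates the change of low genes. A gene counts as past 2-fold where its log2 ratio is 1 or more, or -1 or less, at 10 CPM or more in either library. Each library was clustered alone (2000 variable genes without the members, 30 components, 15 neighbours, Leiden resolution 0.5). A cluster was named only if at least 3 markers of 1 class were raised (5 CPM, log2 ratio 1) with a class median of at least 1. TMM factors came from edgeR 4.0.16, as an alternative. Chromosomes came from a GENCODE annotation holding 32235 of the 32285 identifiers, and the levels and spread steps were tested on simulated data. All 32 members, 2 genes at each end of 5 companion lists and the 10 genes outside the list most like the sterol sum are named, except for a result that is not reported here. The members, lists and markers were chosen with earlier results of these data known.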

Additional observations from a re-analysis of the deposited data

How the results depend on the processing

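No paired analysis was possible because each condition had 1 library, and no library could be left out. The sterol branch kept 17 of 18 members below 0 under other pseudocounts, TMM scaling, other cell filters, removal of called doublets, means over cells and totals without ribosomal genes. TMM scaling moved the median of all genes at a mean of at least 1 CPM from -0.14 to -0.00071. Members at least 2-fold lower numbered 2 with a pseudocount of 10, 4 with TMM scaling, 3 relative to their own chromosome, 4 at a minimum of 50 CPM, and 1 against naive-like LB cells at either clustering resolution, against which 1 member (resolution 0.5) or 2 (resolution 1) were higher. The sterol median was -0.49 with a pseudocount of 10, -0.45 with TMM, -0.49 relative to chromosomes, and 0.11 and 0.15 against the naive-like cells. For the fatty acid branch those values were -0.47, -0.45, -0.21, 0.082 and 0.24, with -0.17 at a mean of at least 20 CPM and 0.053 without chromosomes 8 and 11. For the regulators they were 0.35 with TMM, 0.29 relative to chromosomes, 0.31 and 0.36 against the naive-like cells, and 0.26 without ribosomal genes in the totals. Thinning to 10000 UMIs gave variance ratios of 5.94 (sterol, LB), 2.88 (fatty acid, LB), 2.32 (sterol, LBPXRS) and 1.78 (fatty acid, LBPXRS), and 2000 UMIs gave 2.19, 1.66, 1.31 and 1.18, since counting error weighs less at greater depth. The r of both branch sums at 10000 UMIs was 0.42 in LB and 0.21 in LBPXRS, in the largest cluster alone 0.14 and 0.17, and relative to cluster means 0.26 and 0.084. The range of the sterol branch over clusters was 2.84-fold in LB and 2.40-fold in LBPXRS at resolution 1, and 1.78-fold in LBPXRS without ribosomal genes. Totals without ribosomal genes, a clustering resolution of 1 for the naive-like cells, and r relative to cluster means were chosen after seeing the data. The causes of the other shifts were not tested.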

Other observations

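5 lists of neighbouring pathways were set beside the synthesis genes. Most genes named from them reached 10 CPM in either library, and those that did not are marked. In SREBP processing, Rnf145, a ubiquitin ligase of the endoplasmic reticulum encoded on chromosome 11, was at least 2-fold lower in LBPXRS (24.3 CPM in LB, 8.39 in LBPXRS, log2 ratio -1.43). Mbtps2, the protease that makes the last cut in SREBP, stood at 13.3 and 27.4 CPM (0.99), and Erlin1 at 8.27 and 16.5 CPM (0.91). Against the naive-like LB cells, Mbtps2 was at 0.96 and Rnf145 at -0.88.

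Of 13 genes that move or store sterols, 7 reached 10 CPM in either library. Of those 7, Scarb1, the HDL receptor, was higher in LBPXRS (34.4 and 73.3 CPM, 1.07), and Soat1, which esterifies cholesterol for storage, was lower (32.8 and 9.59 CPM, -1.67), as was Tmem97 on chromosome 11 (133 and 59.0 CPM, -1.16). Abca1 (1.45) and Abcg1 (1.03), which export cholesterol, also had log2 ratios above 1 but stayed under 10 CPM in both libraries, at 1.49 and 5.83 CPM and at 3.72 and 8.62 CPM. Npc2, which takes cholesterol out of lysosomes, stood at 260 and 328 CPM (0.34). Soat1 was at 5.84 CPM in the naive-like LB cells, so against those its log2 ratio was 0.63, while Scarb1 reached 1.48. Tmem97 stood at -0.88 against those cells, short of 2-fold.

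Of 14 fatty acid oxidation genes at 10 CPM or more, 2 stood 2-fold or more above LB and 0 below. They were Slc25a20, the carnitine carrier of the mitochondrial membrane (8.60 and 45.3 CPM, 2.27), and Cpt1a, which makes the acyl-carnitines it carries (5.69 and 13.5 CPM, 1.12). Against the naive-like LB cells they stood at 1.71 and 0.64. Decr1 (-0.83) and Acadvl (-0.57) were at the low end, and the list's median was -0.050.

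The isoprenoid list, of 9 genes at 10 CPM or more, had Rabggta higher (20.2 and 49.4 CPM, 1.25) and Coq2, an enzyme of ubiquinone synthesis, lower (46.2 and 20.2 CPM, -1.15). Against the naive-like LB cells Rabggta was at 1.29 and Coq2 at -0.60, no longer past 2-fold. Ggps1 stood at 0.48 and Fnta, on chromosome 8, at -0.86. Of 21 other genes of fatty acid and lipid synthesis, 14 reached 10 CPM, of which 2 were lower and 0 higher: Elovl1, which elongates very long chains (33.2 and 9.24 CPM, -1.74), and Mecr, of mitochondrial fatty acid synthesis (17.8 and 7.39 CPM, -1.17). Agpat3 (0.49) and Slc25a1, the citrate carrier (0.46), stood highest among those 14. Against the naive-like LB cells, 0 of the 14 were past 2-fold lower and 2 were higher, Agpat3 (1.30) and Lpin1 (1.02, named after its value was seen), with Elovl1 at -0.49 and Mecr at -0.54. Of all genes in that comparison, 6.41% were lower and 9.19% higher. Mlxipl (1.31) and Acss2 (0.98) had higher ratios at under 10 CPM. Against all LB cells, 10.4% of all genes at 10 CPM or more were lower and 7.98% higher past 2-fold. Low counts limit Hsd17b7 and Scap most, whose intervals are the widest relative to their level in both libraries.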
